A study of Mus musculus with 18 samples.

Results

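The genes described here are 35 homeobox genes of sensory and neural lineages, from Otx and Pitx genes of the head to Pou4f and Tlx genes of sensory neurons, among 20661 autosomal protein-coding genes. They were taken as a named list, and each was read through the H3K27me3 intervals that overlap its gene body extended by 2.5 kb on either side (GRCm38). Of the 35, 34 carried an interval in all 12 WT and KO libraries. H3K27me3, trimethylation of lysine 27 of histone H3, was profiled by CUT&Tag, in which an antibody guides a transposase to cut and tag nearby DNA, in nuclei of the mouse embryonic medial ganglionic eminence (MGE). The MGE is a ventral forebrain zone that gives rise to interneurons. The question of the study was how the mark changes when Ezh2 is deleted there.

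There were 4 groups of 3 libraries, labelled as biological replicates: WT and KO at E12.5, and WT and KO at E15.5. Males carrying Nkx2.1-CreC/C and Ezh2F/+ were mated with Ai9F/F;Ezh2F/+ females. By this cross WT and KO embryos alike carry the Cre and the Ai9 reporter, and the KO is labelled Nkx2.1-CreC/+;Ezh2;Ai9F/+. The labels name no strain. The Cre acts in Nkx2-1 cells, so cells of another origin in the dissected tissue keep Ezh2. The whole MGE was taken at E12.5, whereas at E15.5 it was cut out under fluorescence to collect Tom+ cells, so stage and dissection cannot be told apart. Tissue of embryos of one genotype was combined where applicable. The 6 heterozygous samples were not analysed here.

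Ezh2 is the catalytic subunit of Polycomb repressive complex 2, which places H3K27me3. The mark covers broad domains over developmental transcription factor genes in cells that do not use them, and homeobox genes of other lineages are well-known targets. Homeobox genes encode DNA-binding regulators that specify where a cell lies and what it becomes. Fewer marked cells and less mark per cell cannot be told apart in bulk nuclei.

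The intervals of a library held between 573838 and 6846250 counts in all. Depth, recovered as the mean count per 200 bp window, was lowest in the first E15.5 WT library (0.0751) and highest in the second E12.5 WT library (0.698). Within E12.5 WT it spanned 0.117 to 0.698. Each count was divided by its library's depth and multiplied by the average depth, and is given as a normalised count. Of 10 MGE marker genes, 8 had an interval in every library, as did 5 of 10 markers of cortical, vascular and blood cells. None of 18 housekeeping genes had one in every library, and 12 had one in none. The mark is no measure of transcripts, so the labelled tissue could not be checked by expression.

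The promoter sequences of 7 members are shown to describe their base composition, and no test of counts or covered bases used them. Of the 35 members, 26 matched the RefSeq promoter table (GRCm38.p6). Each line gives the 250 bases before the most 5′ start site in that table, 5′ to 3′ on the strand of the gene, with every CG dinucleotide in capitals. Uncx (chr5:139543648-139543897, plus strand) and Barhl2 (chr5:106458167-106458416, minus strand) were among the 4 members with the highest counts per kb.
Uncx: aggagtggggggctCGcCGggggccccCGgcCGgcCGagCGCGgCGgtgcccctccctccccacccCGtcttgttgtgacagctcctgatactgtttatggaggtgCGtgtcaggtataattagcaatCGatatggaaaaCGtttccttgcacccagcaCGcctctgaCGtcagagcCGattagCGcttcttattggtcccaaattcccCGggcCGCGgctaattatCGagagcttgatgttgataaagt
Barhl2: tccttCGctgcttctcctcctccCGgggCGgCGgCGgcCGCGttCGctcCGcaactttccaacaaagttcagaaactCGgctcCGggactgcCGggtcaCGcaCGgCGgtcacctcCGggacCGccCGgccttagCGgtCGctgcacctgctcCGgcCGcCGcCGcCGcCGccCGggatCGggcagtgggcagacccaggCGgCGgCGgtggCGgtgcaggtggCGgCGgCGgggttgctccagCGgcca
Otx2 (chr14:48667645-48667894, minus strand), Dmbx1 (chr4:115939927-115940176, minus strand) and Vsx1 (chr2:150689138-150689387, minus strand) are shown for their values at the 2 stages.
Otx2: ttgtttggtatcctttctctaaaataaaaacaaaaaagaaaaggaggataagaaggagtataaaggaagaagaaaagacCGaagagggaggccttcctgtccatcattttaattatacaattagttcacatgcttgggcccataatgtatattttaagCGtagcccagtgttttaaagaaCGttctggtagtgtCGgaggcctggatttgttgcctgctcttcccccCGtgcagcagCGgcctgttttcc
Dmbx1: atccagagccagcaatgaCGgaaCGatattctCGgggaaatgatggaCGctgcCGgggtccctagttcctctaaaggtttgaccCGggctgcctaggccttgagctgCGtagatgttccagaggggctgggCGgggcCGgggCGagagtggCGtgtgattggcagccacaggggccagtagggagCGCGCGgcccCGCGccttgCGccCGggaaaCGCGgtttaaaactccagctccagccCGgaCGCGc
Vsx1: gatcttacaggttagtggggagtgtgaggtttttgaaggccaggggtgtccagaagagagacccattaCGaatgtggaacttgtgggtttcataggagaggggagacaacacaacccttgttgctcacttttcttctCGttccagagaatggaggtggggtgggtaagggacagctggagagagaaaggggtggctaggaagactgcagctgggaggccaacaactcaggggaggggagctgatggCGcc
Vax1 (chr19:59170398-59170647, minus strand) had the lowest counts per kb of interval among the 34 members with an interval in all 12 libraries. Hesx1 (chr14:27000112-27000361, plus strand) is the member that lacked an interval in 11 of 12 libraries.
Vax1: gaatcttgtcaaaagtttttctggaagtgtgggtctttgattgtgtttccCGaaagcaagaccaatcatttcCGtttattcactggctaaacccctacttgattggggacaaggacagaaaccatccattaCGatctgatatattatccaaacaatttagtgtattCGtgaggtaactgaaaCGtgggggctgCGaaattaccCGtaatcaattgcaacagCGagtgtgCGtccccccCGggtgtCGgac
Hesx1: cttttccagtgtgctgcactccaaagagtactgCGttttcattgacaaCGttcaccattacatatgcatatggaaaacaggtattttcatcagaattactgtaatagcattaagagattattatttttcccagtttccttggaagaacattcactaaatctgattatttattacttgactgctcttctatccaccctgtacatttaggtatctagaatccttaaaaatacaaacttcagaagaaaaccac

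The start site lay inside an interval in all 12 libraries for 25 of these 26 members (96.2%), against 1148 of 16456 promoters in the table (6.98%). Hesx1 was the exception, with its start covered in 0 libraries. The printed 250 bases held 36 CG dinucleotides at Barhl2, 23 at Dmbx1 and 20 at Uncx. They held 11 at Vax1, 6 at Otx2, 3 at Vsx1 and 2 at Hesx1. Base composition thus ran widely among covered members. Over 300 bases Otx2 held 6 and Vsx1 held 5 CG dinucleotides, below the median of 9 of promoters covered in no library, and both were covered in every library. Otx2 has 4 start sites in the promoter table, and the composition of those other than the most 5′ was not measured.

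Over the 300 bases from 250 before to 50 after the start, 14 of 26 members (53.8%) were rich in CG, taken as an observed over expected ratio above 0.6 with a G and C content above 50%. This held for 47.0% of all promoters and for 62.1% of those covered in every library, so the members lay between the 2. Their ratio ran from 0.11 at Hmx2, measured at the most 5′ of its 2 start sites, to 1.24 at Pou4f1. TAATTA, a palindrome and a core of many homeodomain sites, was found in 4 of 26 members (15.4%) and in 4.61% of all promoters. The 4 were Otx2, Msx2, Barhl1 and Uncx, the last with 2 copies. TAATCC, searched on both strands, was found in 0 of 26 members and in 6.50% of promoters. These matches describe the letters only.

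The 34 members stood in the dense and broad range of the mark. An interval in every library was found for 34 of 35 members, against 2491 of 20661 genes (12.1%). Their median density was 169 normalised counts per kb of interval, against 29.1 for the 2491 genes, and their median interval width was 25.7 kb against 7.4 kb. The extended gene body was wholly covered in all 12 libraries for 20 of 34 members (58.8%) and for 156 of the 2491 genes (6.26%). The median member stood at percentile 92.3 of density. No test was made between the members and other genes. Interval widths also differed between libraries of one group, as at Uncx, where the second E12.5 WT library gave 110.6 kb and the first 37.6 kb.

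**Figure D1:**
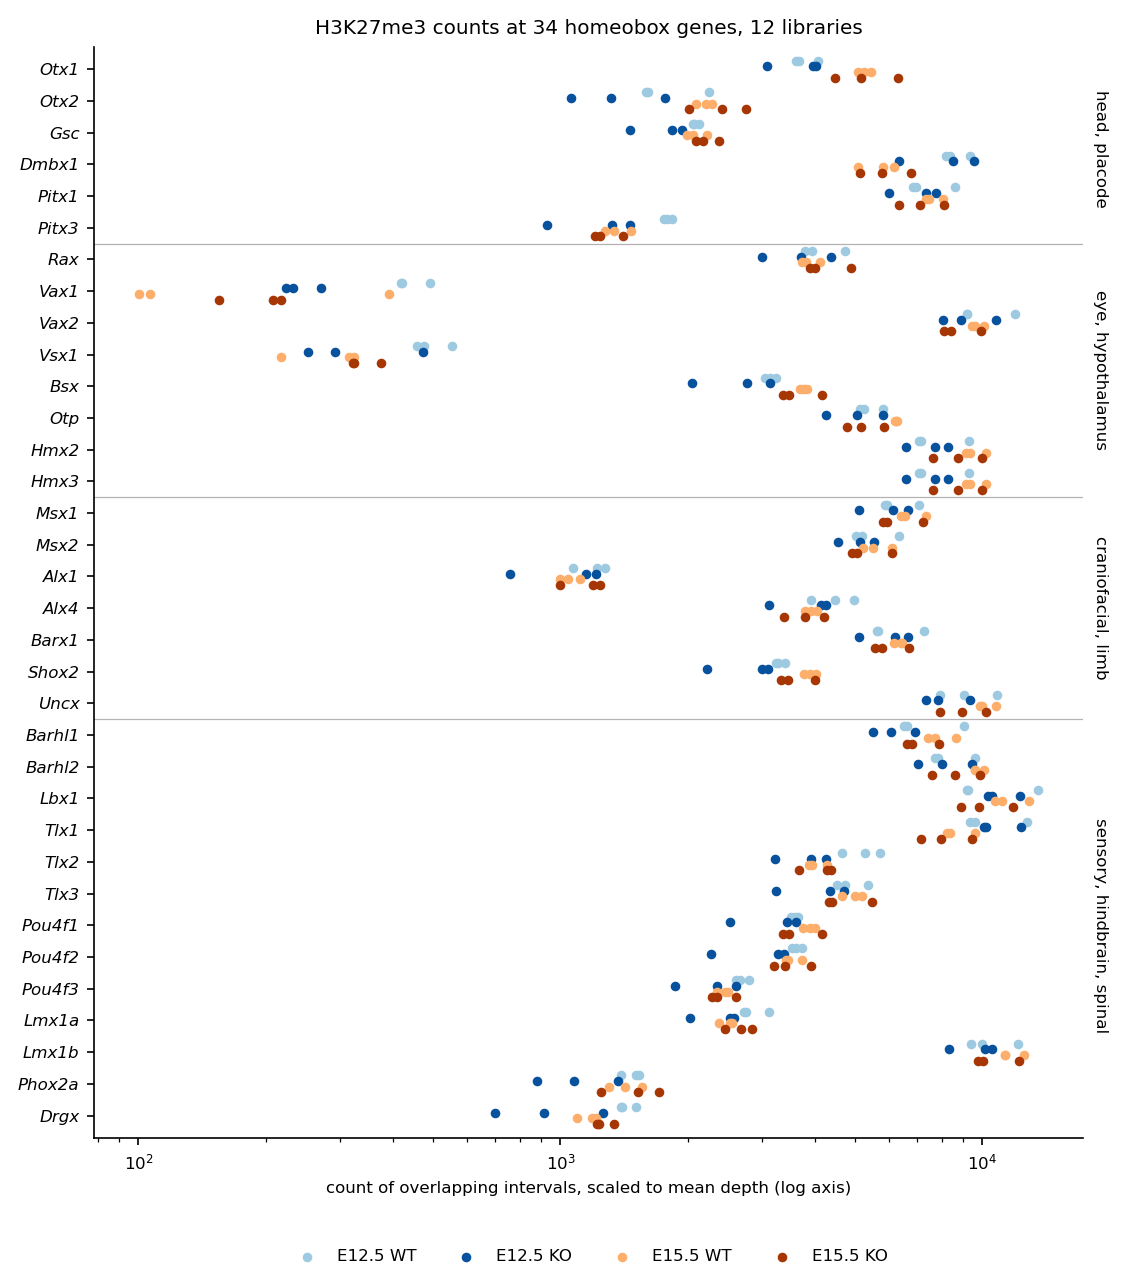
Each point is 1 library: the x axis gives the normalised count of the intervals over a member on a log scale, the rows are the 34 members with an interval in all 12 libraries, grouped by role, and the colours are the 4 groups of 3 libraries. Vax1 and Vsx1 stand apart at the low end, Lbx1 reaches 13560.3 in one library, and in many rows the points of the groups intermingle.

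Among genes of the head and placodes, 6 of 7 had an interval in every library, with a median density of 119 normalised counts per kb of interval. Otx1 and Otx2, which pattern the forebrain and midbrain, stood at 206 and 70.7. Pitx1, a regulator of the pituitary and hindlimb, reached 265, and Gsc, a gene of the head organizer, 119. Pitx3, needed in the lens and in midbrain dopamine neurons, stood at 67.1, and Dmbx1, a gene of the developing diencephalon and midbrain, at 130.0.

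Hesx1 (chr14:26994419-27002329), a repressor of the anterior neural plate and pituitary primordium, was the only member of the 35 without an interval in most libraries. It was at 0 counts in 11 libraries, among them all 3 E12.5 WT, 3 E15.5 WT and 3 E15.5 KO libraries. E12.5 KO replicate 3 held a single interval of 1.2 kb with 10 counts there. The files list called intervals only, so a 0 is an interval not called and not an absence of reads, and this gene entered no test.

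The 8 genes of the eye and hypothalamus had a median density of 170 normalised counts per kb of interval. Hmx2 and Hmx3, genes of the inner ear and hypothalamus, were the densest members at 324. They lie side by side under 1 interval, shared in all 12 libraries, so their counts are the same numbers and count as 1 observation. Vax2, which acts in the ventral retina, stood at 230.2, Otp of neuroendocrine neurons at 182, Rax of the eye field at 158 and Bsx of the hypothalamus at 128. Vsx1, a regulator of retinal bipolar cells, stood at 52.5 and Vax1, a gene of the optic stalk and ventral forebrain, at 19.5.

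Per kb of extended gene body, Hmx3 stood below Lbx1 and Uncx alone, with a mean of 888 normalised counts. In E12.5 WT its interval held 9277, 7156 and 7061 normalised counts, and in E12.5 KO 6584, 8298 and 7728. At E15.5 it held 10211, 9354 and 9147 in WT and 8761, 9960.0 and 7618 in KO. The genotypes overlapped at both stages.

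Craniofacial, limb and axial mesenchyme genes, 7 in all, had a median density of 171 normalised counts per kb of interval. Barx1, a gene of jaw and stomach mesenchyme, stood at 247 and Msx1, a BMP-responsive regulator of craniofacial and limb tissue, at 224. Msx2, its close relative, stood at 167, and Shox2, a limb and heart pacemaker gene, at 171. Alx4 and Alx1, genes of the frontonasal mesenchyme, stood at 143 and 91.9.

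Uncx, needed for the axial skeleton, had the broadest single interval of the group. Its normalised counts were 10844, 9040.3 and 7912 in E12.5 WT and 7329, 9343 and 7841 in E12.5 KO. At E15.5 they were 10778, 9867 and 9974 in WT and 8948, 10185 and 7915 in KO. The KO libraries reached into the range of WT at both stages. Its mean of 984 per kb of extended gene body was second among the members.

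The largest group, 13 genes of sensory, hindbrain and spinal neurons, had a median density of 174 normalised counts per kb of interval. Lbx1, which specifies dorsal spinal interneurons, stood at 313, Barhl1 and Barhl2 of the dorsal spinal cord and inner ear at 262 and 255, and Tlx1 at 249. Tlx3, which selects excitatory dorsal horn neurons, stood at 219.7 and Tlx2, an enteric neuron gene, at 177. Pou4f1, Pou4f2 and Pou4f3, of sensory ganglia, retinal ganglion cells and hair cells, stood at 146, 127 and 174. Phox2a, of noradrenergic neurons, stood at 148. Lmx1a and Lmx1b, genes of the roof plate and of midbrain dopamine neurons, stood at 141 and 138.

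Lbx1 had the highest count of all members per kb of extended gene body, a mean of 1185. Its normalised counts were 13560.3, 9181 and 9254 in E12.5 WT and 10515, 12245 and 10314 in E12.5 KO. At E15.5 they were 12892, 11100.4 and 10682 in WT and 9807, 11835 and 8893 in KO. E12.5 WT replicate 1 held the highest value, and the genotypes overlapped at both stages.

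Barhl2 followed Hmx3 with a mean of 822 per kb of extended gene body. Its normalised counts were 9621, 7720.2 and 7861 in E12.5 WT and 7018, 9445 and 8005 in E12.5 KO. At E15.5 they were 10066, 9596 and 9619 in WT and 8621, 9854 and 7605 in KO. As at Lbx1, the genotypes overlapped at both stages.

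At the low end of counts per kb of extended gene body, after Hesx1, were Lmx1a at 15.7, Drgx at 20.6 and Vax1 at 24.7. Lmx1a and Drgx are long genes, and their intervals covered at most 16.2% and 29.9% of the extended gene body. Lmx1a held 3118, 2758 and 2715 normalised counts in E12.5 WT and 2022, 2516 and 2573 in E12.5 KO. Every KO library there lay below every WT library, as at 33.0% of all genes tested. Over 17 alternative settings its log2 change, KO against WT at E12.5, ran from -0.34 to 0.30, so the direction depends on the setting. At E15.5 Lmx1a held 2553, 2379 and 2524 in WT and 2451, 2848 and 2683 in KO, which overlapped. Vax1 alone of the 3 was thinly marked also per kb of interval.

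The interval over the start site was measured for the 25 members whose start was covered. It was narrowest at Vsx1, between 3.6 and 9.2 kb over the 12 libraries, and at Vax1 it lay between 5.8 and 18.6 kb. By group mean it was broadest at Dmbx1 in all 4 groups, with 66.9 kb in E12.5 WT and 57.7 kb in E12.5 KO, and 39.3 kb in E15.5 WT and 48.2 kb in E15.5 KO. Uncx reached 110.6 kb and Lmx1b 98.8 kb in a single library, the deep E12.5 WT replicate 2. Lmx1a was covered from at most 4.96 kb before its start to at most 16.8 kb after it, a small share of its gene body. At Dmbx1 most of the interval lay before the start, with 46.3 ± 3.12 kb (SD, n = 3) in E12.5 WT and 27.5 ± 15.2 kb in E15.5 WT.

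**Figure D2:**
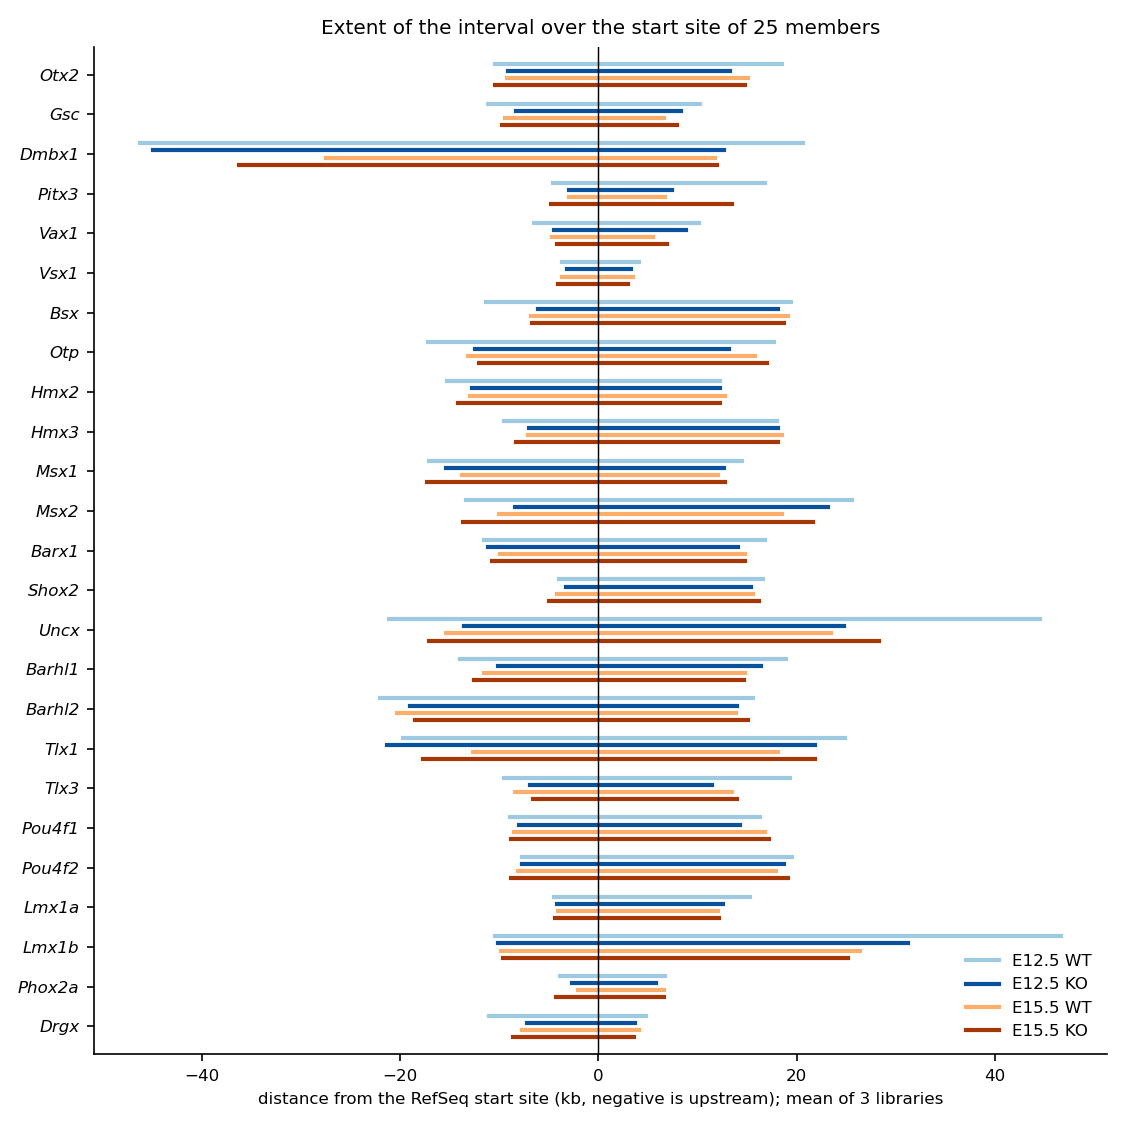
Each line spans the mean reach, over the 3 libraries of a group, of the interval over a member's start site; the x axis is the distance from the RefSeq start in kb, negative before it. Dmbx1 reached farthest before the start, 46.3 kb in E12.5 WT, and Lmx1b and Uncx reached far after it in E12.5 WT, the group with the deepest library.

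No member passed the threshold between KO and WT at E12.5. With edgeR's quasi-likelihood test on counts scaled to depth, 0 of 34 members had a Benjamini-Hochberg adjusted p under 0.05, against 127 of 3139 genes (4.05%), all of them lower. An unadjusted p under 0.05 was reached by 1 member, against 905 of the 3139 genes. DESeq2 called 0 members, against 5.45% of all genes. The log2 changes of the members, KO against WT, ran from -0.87 at Vax1 to 0.05 at Lbx1. Their median was -0.19 with depth scaling and 0.34 with TMM scaling, so its sign depends on the scaling. All tested genes shifted as well, with a median of -0.57 by depth and -0.05 by TMM, and under either scaling the members' median lay above that of all genes. The median half-width of the members' 95% confidence intervals was 0.53. These intervals are not adjusted for the number of genes tested, so larger changes could also fail to pass, as at Vax1. In simulated data with 2-fold changes the test recovered 14% of changed genes and 51.9% of those with high counts.

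Every KO library lay below every WT library at 9 members in E12.5, and the reverse held at 0. Over all genes tested these shares were 33.0% and 0.35%. The 9 of 34 were Lmx1a, Shox2, Tlx2, Phox2a, Pou4f2, Gsc, Drgx, Pitx3 and Vax1. These orders are on the depth scale, on which most genes were lower in KO. The share of the members was near the background.

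Vax1 had the lowest change. It held 419, 490.0 and 420.1 normalised counts in E12.5 WT and 233, 224 and 270.3 in E12.5 KO. The groups did not overlap, and the fitted log2 change was -0.87 with a 95% confidence interval from -1.54 to -0.20 and an adjusted p of 0.119 in edgeR. Relative to the median of all genes it was -0.30, and with TMM it was -0.32. At E15.5 Vax1 held 100.3, 106 and 392 in WT and 208, 218 and 155 in KO. WT replicate 3 stood far above the other two, and the genotypes overlapped. The E15.5 values rest on 29, 53 and 226 raw counts in WT.

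Phox2a, Pitx3 and Vsx1 also stood among the lower members at E12.5, without passing the test. Phox2a held 1513, 1538 and 1393 normalised counts in WT and 882, 1079 and 1369 in KO. The fitted log2 change was -0.42 (edgeR adjusted p = 0.293) by depth and 0.09 by TMM. The changes at Pitx3 (-0.54) and Vsx1 (-0.55) were likewise close to that of all genes, at 0.04 and 0.02 above its median.

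By role, the median log2 change at E12.5 was -0.17 for head and placode genes, -0.15 for eye and hypothalamus genes, -0.18 for craniofacial and limb genes and -0.25 for sensory, hindbrain and spinal genes. With TMM the 4 medians were 0.35, 0.38, 0.36 and 0.27. The roles were not tested against each other.

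At E15.5 the members' counts also showed no call. In edgeR 0 of 34 passed, against 0.483% of 2694 genes. An unadjusted p under 0.05 was reached by 1 member and by 303 of the 2694 genes. DESeq2 called 0 members, against 2.67% of all genes. The log2 changes ran from -0.25 at Otp to 0.25 at Vsx1, with a median of -0.07 for members and -0.01 for all genes. TMM gave a median of -0.06 for the members. The median half-width of the confidence intervals was 0.27, narrower than at E12.5.

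Otp, a regulator of hypothalamic neuroendocrine neurons, had the lowest change at E15.5. It held 6268, 6190.1 and 6247 normalised counts in WT and 5147, 5838 and 4774 in KO. Every KO library lay below every WT library, which held for 1 member in 34 and for 8.05% of all genes. KO differed from WT by -0.25 on the log2 scale (95% confidence interval -0.49 to -0.0048, edgeR adjusted p = 0.439).

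Drgx, a gene of pain-sensing neurons of the dorsal root ganglion, was the 1 member whose KO libraries all lay above WT at E15.5, against 11.1% of genes. At E12.5 it held 1403, 1508 and 1392 normalised counts in WT and 701, 913 and 1264 in KO. At E15.5 it held 1093, 1211 and 1187 in WT and 1231, 1338 and 1222 in KO. On the depth scale the order of the genotypes thus turned between the stages. The log2 changes were -0.58 (edgeR adjusted p = 0.194) and 0.12 (edgeR adjusted p = 0.687). The medians of all genes at these stages were -0.57 and -0.01.

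**Figure D3:**
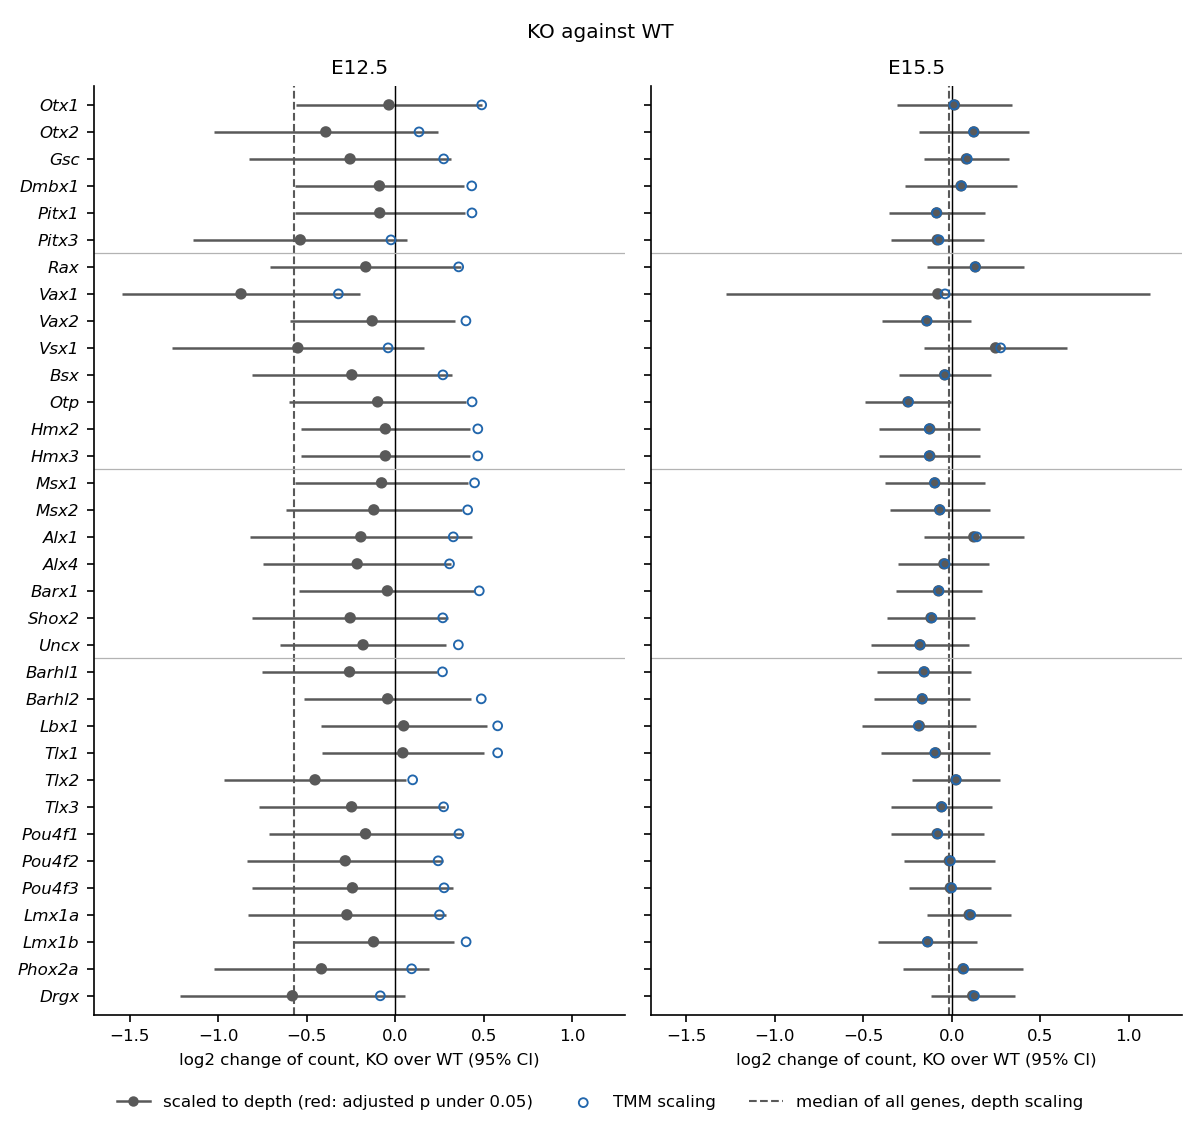
Filled points give the log2 change of each member's count, KO over WT, at E12.5 (left) and E15.5 (right) with depth scaling, lines its 95% confidence interval, open circles the same with TMM scaling and the dashed line the median of all genes tested. At E12.5 most filled points lie above the dashed line at -0.57 and most open circles lie above 0, and at E15.5 both scalings nearly coincide.

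Over both stages together, 0 of 34 members passed in edgeR, against 0.963% of 2491 genes. An unadjusted p under 0.05 was reached by 0 members, against 525 of the 2491 genes. DESeq2 called 0 members, against 8.79% of all genes. The median log2 change was -0.13 by depth and 0.14 by TMM, again with opposite signs, against -0.29 and 0.00 for all genes. The member with the lowest adjusted p was Pitx3, at -0.31 by depth (edgeR adjusted p = 0.239) and -0.04 by TMM. The difference between the stages in the genotype change passed for 0 of 34 members, against 0.562% of genes. For this difference, 2 members had an unadjusted p under 0.05, against 686 of the 2491 genes. DESeq2 called 0 members, against 1.73% of all genes. The members' median of the difference was 0.14 by depth and -0.43 by TMM, so the sign depends on the scaling. All genes had medians of 0.61 and 0.02, and under either scaling the members' median lay below that of all genes. Without E12.5 KO replicate 3 this difference passed at 3 of 34 members, Drgx, Phox2a and Vsx1, and at 38.5% of all genes. Without E15.5 WT replicate 3 it passed at 1 member, Vax1, and at 0.439% of all genes.

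The count of 0 at E12.5 changed in 2 settings. Without E12.5 KO replicate 3, 2 of 34 members passed, Vax1 and Vsx1, both lower, while 28.7% of all genes were lower. When the spread was shared over all 12 libraries, 3 of 34 passed, Drgx, Pitx3 and Tlx2, all lower, while 26.1% of all genes were lower. Different members passed in the 2 settings.

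The bases covered inside the extended gene body gave no call with limma. For E12.5, E15.5 and both stages 0 of 34 members passed, against 0.0%, 0.0% and 0.0% of genes. An unadjusted p under 0.05 was reached by 1, 0 and 0 members, against 310, 154 and 67 of all genes tested. The median log2 change of the members was 0.0 in each. Of the 34 extended gene bodies, 20 were wholly covered in all 12 libraries, so the test could show no change there. All genes had medians of -0.32, 0.17 and -0.03. The lowest member was Lmx1a at E12.5, with -0.41 (limma adjusted p = 0.548).

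More member calls came from the comparison of stages in WT. In edgeR 4 of 34 members were lower at E15.5 than at E12.5, against 35.8% of 2623 genes, and 1 of 34 was higher, against 1.72%. The lower members were Vsx1, Dmbx1, Pitx3 and Tlx2, and the higher was Otx1. The members' median log2 change was 0.02 by depth and 0.47 by TMM, against -0.58 and -0.10 for all genes. With TMM 0 members were lower and 6 were higher, against 17.1% and 10.3% of all genes. With DESeq2 0 were lower and 15 higher, against 14.6% and 14.2%. Hmx2 and Hmx3, which share 1 interval, are counted separately among these 15 and among the 34. The 4 lower calls were thus made with depth scaling and not with TMM or DESeq2. E15.5 WT libraries were shallower, and the dissection differed. Leaving out 1 library changed the number of calls to between 0 and 15, with 0 without E15.5 WT replicate 1 or 2. Without E12.5 WT replicate 1, 4 members were lower and 11 higher, against 49.0% and 3.41% of all genes.

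Otx1 (chr11:21994764-22001651), a forebrain gene of cortical and sensory organ development, was the member called higher. It held 4068, 3669 and 3612 normalised counts in E12.5 WT and 5448, 5061 and 5249 in E15.5 WT. Every E15.5 library lay above every E12.5 library. The log2 change was 0.47 (95% confidence interval 0.24 to 0.71, edgeR adjusted p = 0.0156), and 0.93 with TMM (adjusted p = 0.0149). In KO it held 3087, 4024 and 3964 at E12.5 and 5159, 6300.4 and 4464 at E15.5, again without overlap, with a change of 0.52 on the log2 scale (edgeR adjusted p = 0.221). Its interval also covered part of Ehbp1 in all 12 libraries. Counts weighted by the share of the interval in the extended gene body gave 0.50 with an edgeR adjusted p of 0.0996. Without E12.5 WT replicate 3, E15.5 WT replicate 1 or E15.5 WT replicate 2 the call was lost.

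Vsx1 (chr2:150680702-150689137), the retinal bipolar cell gene, fell by depth scaling. It held 456, 552 and 475 normalised counts in E12.5 WT and 218, 315 and 324 in E15.5 WT, with no overlap. The log2 change was -0.79 (95% confidence interval -1.27 to -0.31, edgeR adjusted p = 0.0256), which is -0.21 relative to the median of all genes. With TMM it was -0.32 (edgeR adjusted p = 0.133). In KO Vsx1 held 291, 252 and 471 at E12.5 and 323, 324 and 376 at E15.5, which overlapped, and the log2 change was 0.01 (edgeR adjusted p = 0.988). The difference between these changes was 0.80 (edgeR adjusted p = 0.170). Vsx1 was the member that kept its call when counts were weighted by overlap, at -0.85 (edgeR adjusted p = 0.0139). Without E12.5 WT replicate 2 or 3, or E15.5 WT replicate 1 or 2, it did not pass.

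Dmbx1 (chr4:115915119-115940597), the diencephalon and midbrain gene, fell by depth scaling as well. It held 9337, 8389 and 8202 normalised counts in E12.5 WT and 5818, 5069 and 6183 in E15.5 WT, with no overlap. The log2 change was -0.60 (95% confidence interval -0.87 to -0.34, edgeR adjusted p = 0.0132), or -0.02 relative to the median of all genes, and -0.15 with TMM. In KO it held 6343, 9527 and 8506 at E12.5 and 5785, 6786 and 5129.8 at E15.5, where replicate 1 at E12.5 fell within the E15.5 range, and the log2 change was -0.46 (edgeR adjusted p = 0.251). Its intervals reached far outside the extended gene body, with widths of 56.6, 76.4 and 75.2 kb in E12.5 WT and 28.8, 37.0 and 66.0 kb in E15.5 WT. Weighted by overlap the change was -0.35 (edgeR adjusted p = 0.281). The call was lost without E15.5 WT replicate 1 or 2.

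Pitx3 (chr19:46135281-46148325) held 1786, 1840.3 and 1756 normalised counts in E12.5 WT and 1339, 1278 and 1467 in E15.5 WT, with no overlap. On the log2 scale the change was -0.40 by depth (edgeR adjusted p = 0.0297) and 0.06 by TMM, so its direction depends on the scaling. In KO it held 928, 1323 and 1462 at E12.5 and 1209, 1405 and 1244 at E15.5, which overlapped. Its intervals also reached Elovl3 in 12 libraries and Gbf1 in 8. Here too the call held without E12.5 WT replicate 1 and was lost without any other of the 6 WT libraries.

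Tlx2 (chr6:83068325-83070225) held 4649, 5714 and 5261 normalised counts in E12.5 WT and 4289, 3888 and 3954 in E15.5 WT, with no overlap. By depth the log2 change was -0.37 (edgeR adjusted p = 0.0418), 0.11 by TMM and 0.28 with counts weighted by overlap, so its direction depends on the setting. In KO it held 3228, 4259 and 3930.5 at E12.5 and 4278, 4371 and 3679 at E15.5, which overlapped. The interval over this short gene reached Dqx1 and Pcgf1 in 12 libraries and Lbx2, another homeobox gene, in 3. Its width was 19.4, 44.8 and 41.6 kb in E12.5 WT and between 17.6 and 28.8 kb in E15.5 WT, so the widest intervals lay in 2 E12.5 WT libraries. The call held without E12.5 WT replicate 1 and was lost without any other of the 6 WT libraries.

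In WT, every E15.5 library lay below every E12.5 library at 8 members (background 52.0%) and above at 5 (3.93%). The 8 were Lmx1a, Vsx1, Dmbx1, Tlx2, Drgx, Pou4f3, Pitx3 and Vax1. The 5 were Shox2, Bsx, Otx1, Otp and Pou4f1, of which Otx1 alone passed the test with depth scaling. Bsx held 3131, 3238 and 3058 normalised counts in E12.5 WT and 3846, 3781 and 3701 in E15.5 WT, with a log2 change of 0.27 (edgeR adjusted p = 0.0564) by depth and 0.73 (adjusted p = 0.0152) by TMM. The 6 members called higher with TMM are thus a larger set than the 1 called by depth.

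**Figure D4:**
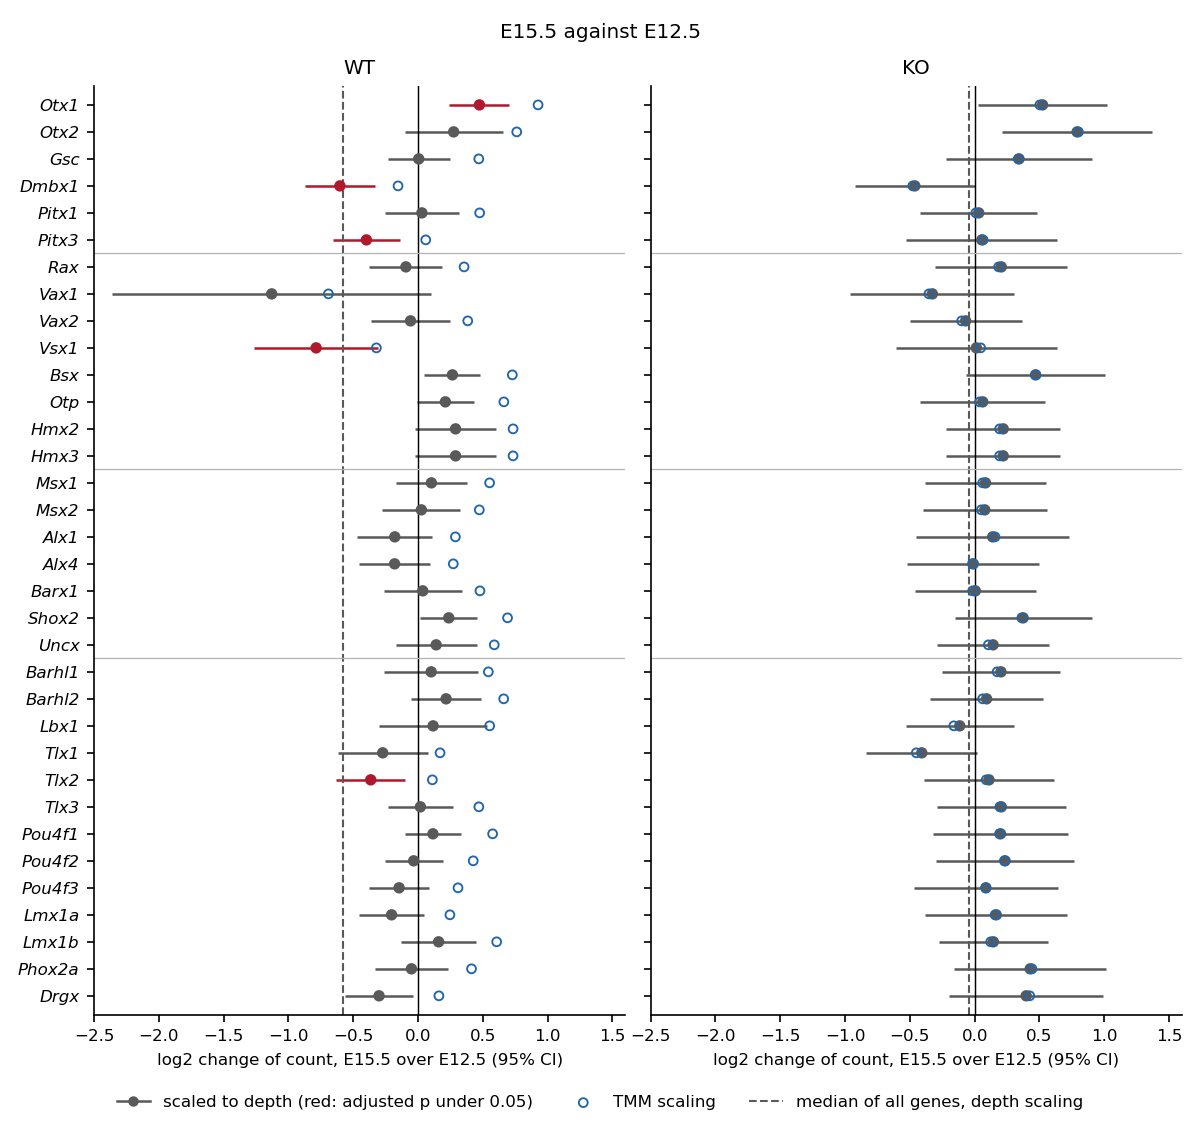
Filled points give the log2 change of each member's count, E15.5 over E12.5, in WT (left) and KO (right) with depth scaling, lines its 95% confidence interval (red where the adjusted p was under 0.05), open circles TMM scaling and the dashed line the median of all genes. In WT the open circles lie to the right of the filled points in every row, and in KO the 2 scalings nearly coincide.

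In KO, 0 of 34 members differed between the stages in edgeR, against 9.63% of 3002 genes. An unadjusted p under 0.05 was reached by 3 members, against 596 of the 3002 genes. DESeq2 called 5 members higher, against 10.2% of all genes. The median log2 change of the members was 0.14 by depth and 0.11 by TMM, against -0.05 and -0.03 for all genes. Every E15.5 library lay below every E12.5 library at 2 members (background 12.4%), Tlx1 and Vax1, and above at 5 (11.4%), Shox2, Bsx, Otx1, Gsc and Otx2.

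Otx2 (chr14:48656781-48667644) came closest to a call in KO. It held 1061, 1321 and 1771 normalised counts in E12.5 KO and 2420.1, 2753 and 2013 in E15.5 KO, with no overlap. The log2 change was 0.79 (95% confidence interval 0.21 to 1.37, edgeR adjusted p = 0.0779) by depth and 0.80 (adjusted p = 0.00457) by TMM. It passed in 6 of 17 alternatives, among them the one without E12.5 KO replicate 3. In WT it held 1591, 2247 and 1609 at E12.5 and 2279.5, 2099.5 and 2212 at E15.5, where E12.5 replicate 2 fell within the E15.5 range, with a log2 change of 0.27 (edgeR adjusted p = 0.197). The difference between KO and WT was 0.52 (edgeR adjusted p = 0.254). Otx1 and Otx2 thus gave positive values in both genotypes, of which Otx1 in WT passed.

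**Figure D5:**
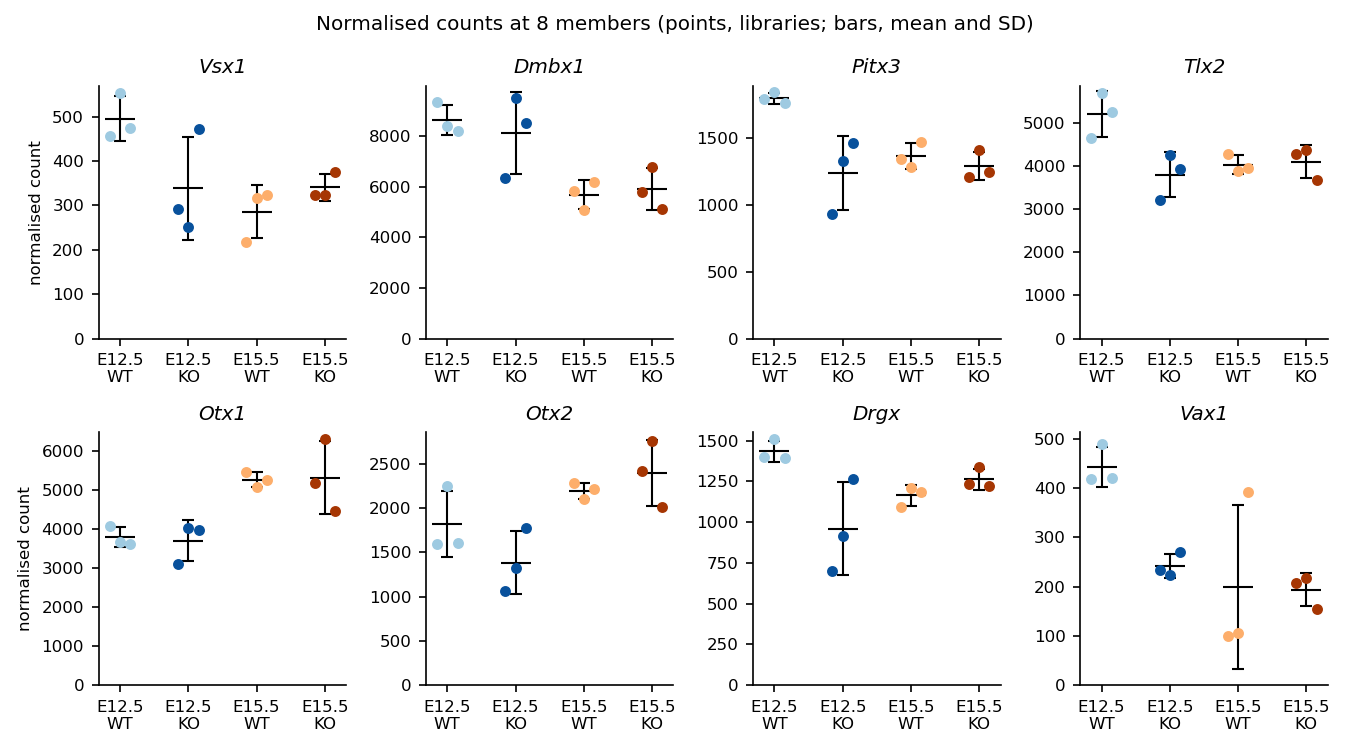
Each panel shows 1 member: points are the normalised counts of the 3 libraries of a group, horizontal bars the mean and error bars the SD, on axes that start at 0. Otx1 stands higher at E15.5 in both genotypes. Dmbx1 stands lower at E15.5 in WT, and in KO its stages overlap. At Vax1 an E15.5 WT library (392) lies far above the others of its group (100.3 and 106).

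Of 12 related homeobox genes outside the list, 10 had an interval in every library, and Crx and Gsc2 had one in none. At E12.5, 1 of 10 was called, against 4.05% of all genes: Lbx2, at -1.91 by depth (edgeR adjusted p = 0.0254). With TMM 0 of 10 were called. The interval over Tlx2 also reached Lbx2 in 3 libraries, where the summed counts of Lbx2 include that interval. How far this shaped the changes at Lbx2 was not tested. In WT 4 of 10 were lower at E15.5 by depth, against 35.8% of all genes, whose median log2 change was -0.58. They were Prrx1 at -2.12, Lbx2 at -2.15, Msx3 at -0.77 and Barx2 at -0.47 (edgeR adjusted p = 0.00287, 0.0207, 0.00996 and 0.0200). With TMM 2 of 10 were lower, against 17.1% of all genes. In KO Prrx1 was lower at -1.78 and Prrx2 higher at 1.09 (edgeR adjusted p = 4.17e-05 and 0.0429). Of all genes 5.5% were lower and 4.13% higher there. The difference between the 2 lists was not tested.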

How the data were processed

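H3K27me3 CUT&Tag intervals were analysed for 12 WT and KO libraries, which the labels call biological replicates, so p-values measure the spread between these libraries. The deposited files list, for each library, intervals on a 200 bp grid with a whole-number count and a score made by the authors. Per the submitters' processing notes, the tools were cutadapt, Bowtie2, SAMtools, Picard, deepTools and SICER, and the build was GRCm38 (mm10); versions, roles and parameters are not given in the sources used here. The deposited score of single-window intervals was read as the natural log of a Poisson probability to recover each library's mean count per 200 bp window. That this depth is proportional to total reads is an assumption, and every depth-scaled change rests on it.

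Whole counts of the intervals overlapping a gene body extended by 2.5 kb were summed. Autosomal protein-coding genes with an interval in every library compared were tested with edgeR 4.0.16 (R 4.3.3) in a quasi-likelihood fit, with Benjamini-Hochberg adjustment over all genes tested and a threshold of 0.05. Covered bases were tested on the log2 scale with limma 3.58.1. Intervals are called lists, so a gene without one has no count, and an interval can extend past the gene. The edgeR count test was tried on simulated data with 2-fold changes at 200 genes, and the limma test of covered bases was not. Alternatives were TMM scaling, DESeq2 1.42.0, other filters, windows and counting, a replicate block and leaving out each library; robust dispersion and whole interval widths were added after seeing the data.

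The members and gene lists were chosen with earlier results of these data known. Values per library are given, by rule, for members past the threshold, for those lacking an interval in a library, and for the 4 highest and 4 lowest per kb of extended gene body. Those of Phox2a, Otp, Bsx and Otx2 were added after their values were seen. Drgx is listed as Prrxl1 in the gene table. The 6 heterozygous samples were not analysed here.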

Additional observations from a re-analysis of the deposited data

Results flagged for a closer look

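Drgx, the gene of pain-sensing neurons, stood out because its KO libraries all lay below WT at E12.5 and all above WT at E15.5. Its log2 change, KO against WT, went from -0.58 in the younger embryos to 0.12 in the older. The test of the difference between the stages gave 0.70 on the log2 scale (edgeR adjusted p = 0.153), which did not pass. All genes shifted the same way, and relative to their median the difference was 0.09. With TMM scaling it was 0.15 (edgeR adjusted p = 0.680). Without E12.5 KO replicate 3, the library with 1264 normalised counts, the difference passed, as it did at 38.5% of all genes in that setting, against 0.562% with all libraries.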

How the results depend on the processing

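The counts of 0 members called at E15.5 and over both stages kept that value in all 17 and 22 alternatives. At E15.5 these called 0.0% to 2.67% of all genes and 4.89% of all merged regions. Over both stages they called 0.0% to 8.79% and 6.67%. The counts for covered bases stayed at 0 in all 10, 10 and 16. Those called 0.0% to 1.45% of all genes at E12.5, 0.0% to 0.0368% at E15.5 and 0.0% over both stages. At 20 of 34 members, wholly covered in all 12 libraries, the main covered-base test could show no change. The same 34 members had an interval in every library under the 3 alternatives for presence. At E12.5 a fit on all 12 libraries called 3 members, against 26.3% of all genes. Leaving out 1 library there gave 0 to 2, against 0.323% to 28.8%. For the difference between stages, leaving out 1 library gave 0 to 3, against 0.0% to 38.5% of all genes. For the stages in WT, DESeq2 called 15 members, an interval in most libraries 3, counts weighted by overlap 1 and merged regions 9. The first 3 of these settings called 28.8%, 16.2% and 32.4% of all genes, and the last 47.7% of all merged regions. Leaving out 1 WT library gave 0 to 15 members, against 3.15% to 52.4% of all genes. For the stages in KO, TMM called 3, robust dispersion 1, DESeq2 5, merged regions 1 and the fit on all 12 libraries 1. TMM, robust dispersion, DESeq2 and the fit on all 12 libraries called 16.8%, 9.99%, 18.8% and 7.31% of all genes. Among all merged regions 13.8% were called. Leaving out 1 KO library gave 0 to 1 members, against 5.74% to 8.86% of all genes. In WT, Tlx2 reversed to 0.11 with TMM, 0.21 with DESeq2 and 0.28 weighted by overlap, and Pitx3 to 0.059 with TMM and 0.16 with DESeq2. The cause was not tested.

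With a replicate block, 0 members were called at E12.5, at E15.5, over both stages, for the difference between stages and for the stages in KO. Of all genes 9.72%, 0.0%, 0.161%, 1.0% and 7.23% were called, in the same order. For the stages in WT the block called 4 members, against 40.7% of all genes. There Vax1 passed, and Tlx2 (edgeR adjusted p = 0.0723) and Pitx3 (edgeR adjusted p = 0.0588) did not. The numbers were not taken to pair the libraries, since correlations of same-numbered libraries ran from -0.35 to 0.39 and 5 of 18 were over 0.1. The highest, 0.39 and 0.30, were between the stages in WT, where the block changed calls. Among all genes, 127 were called at E12.5, all lower, against 38 lower and 9 higher with TMM, 98 lower and 73 higher with DESeq2, and 651 lower and 3 higher in the fit on all 12 libraries. Simulated 2-fold changes were recovered for 14% of changed genes at E12.5 and 56.5% at E15.5.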
